A study of Mus musculus with 6 samples.

Results

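The glutathione S-transferases (Gst, Mgst), UDP-glucuronosyltransferases (Ugt), sulfotransferases (Sult), carboxylesterases (Ces) and arylamine N-acetyltransferases (Nat) were described in the colon of mice with an intestinal epithelial deletion of HDAC1 and HDAC2. Members were the genes whose symbol begins with Gsta, Gstm, Gstp, Gstt, Gsto, Gstk, Gstz, Mgst, Ugt1, Ugt2, Sult, Ces1, Ces2 or Ces3, with Nat1 and Nat2, and with a probe set that the platform annotation assigns to that gene alone. The rule found 57 of the 18193 genes so measured. No Ugt1 or Ces3 gene was among them, because the probe sets carrying those symbols name several genes at once.

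The series held 6 arrays, 3 from control mice labelled wild type and 3 from HDAC1/2 deficient mice (labelled HDAC1/2 KO). In the deficient mice, floxed HDAC1 and HDAC2 alleles were deleted by a Cre recombinase under the villin promoter, which is active in intestinal epithelial cells and not in the other cells of the gut wall. The sources used here do not state whether the controls carried floxed alleles or Cre, or the sex of the animals on the arrays, which were adult. All mice ate a normal diet and received no treatment, and each array carries the number of a mouse in its label. Values are log2 signals, so a difference of 1 is a doubling of signal, and differences are given as deficient minus control with the standard error (SE) of the limma fit.

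The Gst, Ugt and Sult enzymes make foreign chemicals, drugs, hormones and bile constituents more water soluble by attaching a polar group to them. Gst enzymes attach glutathione, Ugt enzymes attach glucuronic acid taken from UDP-glucuronic acid, Sult enzymes attach sulfate taken from the donor PAPS, and Nat enzymes attach an acetyl group. Carboxylesterases do not conjugate but hydrolyse esters, amides and many prodrugs, and their products often go on to conjugation. In the gut, the lining epithelium carries out this work before absorbed compounds reach the liver.

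The samples were first checked against their labels. Hdac1 fell by 1.30 (SE 0.05, adjusted p = 1.06e-06) and was lower on each deficient array, whereas Hdac2 differed by 0.05 (SE 0.04, adjusted p = 0.475); the position of these probe sets relative to the deleted exons was not checked. Arrays correlated at 0.9984 to 0.9988 within a group and at 0.9824 to 0.9828 between groups. All 12 colon epithelium markers were bright, and their summed log2 level was 17.55 on the control arrays and 17.65 to 17.66 on the deficient arrays. The summed level of 8 smooth muscle markers was 16.10 to 16.11 in controls and 15.71 to 15.77 in deficient colon, and that of 9 leukocyte markers was 12.65 to 12.70 and 13.54 to 13.57. Goblet cell markers (8 measured) summed to 17.10 and to 16.87 to 16.89. Small intestinal enterocyte markers (9 of 10 measured) summed to 13.07 to 13.11 and to 14.58 to 14.60. Of these 6 rose, from Fabp2 at 0.16 to Alpi, intestinal alkaline phosphatase, at 5.08. Slc5a1, the brightest of them in controls (11.73), fell by 0.54, and Lct and Treh did not pass the test. Stratified squamous markers (8) summed to 13.63 to 13.66 and to 11.28 to 11.30. Of them 6 fell, with Tgm3, the brightest in controls (13.36), at -2.93 and Krt5 at -0.17. Krt13 rose by 0.29 and Trp63 did not pass the test. Pancreatic acinar markers (7 of 8) summed to 13.63 to 13.68 and to 14.90 to 14.92. Cela1, the brightest of them in controls (13.60), fell by 0.81. The other 6 rose, with Cela2a at 7.40 and Cpb1 at 7.24 from control means of 5.11 and 4.94. Hepatocyte markers (8) summed to 12.66 to 12.78 and to 10.64 to 10.77, with Ttr at -3.13 and Hpx and Tat at 1.29 and 0.32, all past the test, and the other 5, Alb (0.03) among them, not past the test. The Y-linked gene Eif2s3y averaged 4.09 on the control and 8.34 on the deficient arrays and Xist averaged 12.85 and 12.02, so sex-linked RNA and genotype cannot be told apart here. Each deficient array held both, at 8.22 to 8.49 for Eif2s3y and 11.99 to 12.06 for Xist, and whether RNA of several mice was pooled was not tested. The part of any of these in the results that follow was not tested. In such bulk samples, fewer cells of a type and less RNA per cell cannot be told apart.

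Among the 57 members, 24 were lower in HDAC1/2 deficient colon (42.1%), 9 were higher (15.8%) and 24 did not pass the test, at a limma adjusted p below 0.05. Over all 18193 genes, 28.4% were lower and 21.9% were higher, and the median difference was -0.02, against -0.11 over the members. A change of over 2-fold was found for 8 members that fell, namely Ces2a, Sult1c2, Sult1a1, Ces2g, Ces2b, Sult1d1, Gstm2 and Ces1d, where 1.82% of all genes did so. It was found for 3 members that rose, Ugt2b5, Ces2f and Ces1g, where 2.25% of all genes did so. The 3 control and the 3 deficient values did not overlap in 38 of 57 members, and in 60.9% of all genes. By mean signal, 44 members lay above the 40th percentile of all probe sets and 31 of these passed the test. Among all genes, 13801 lay above it and 8372 of these passed. The other 13 members were dim, and Sult1c1 and Ugt2b1 passed among them. Of the 4392 genes that were dim in the whole series, 790 passed.

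**Figure D1:**
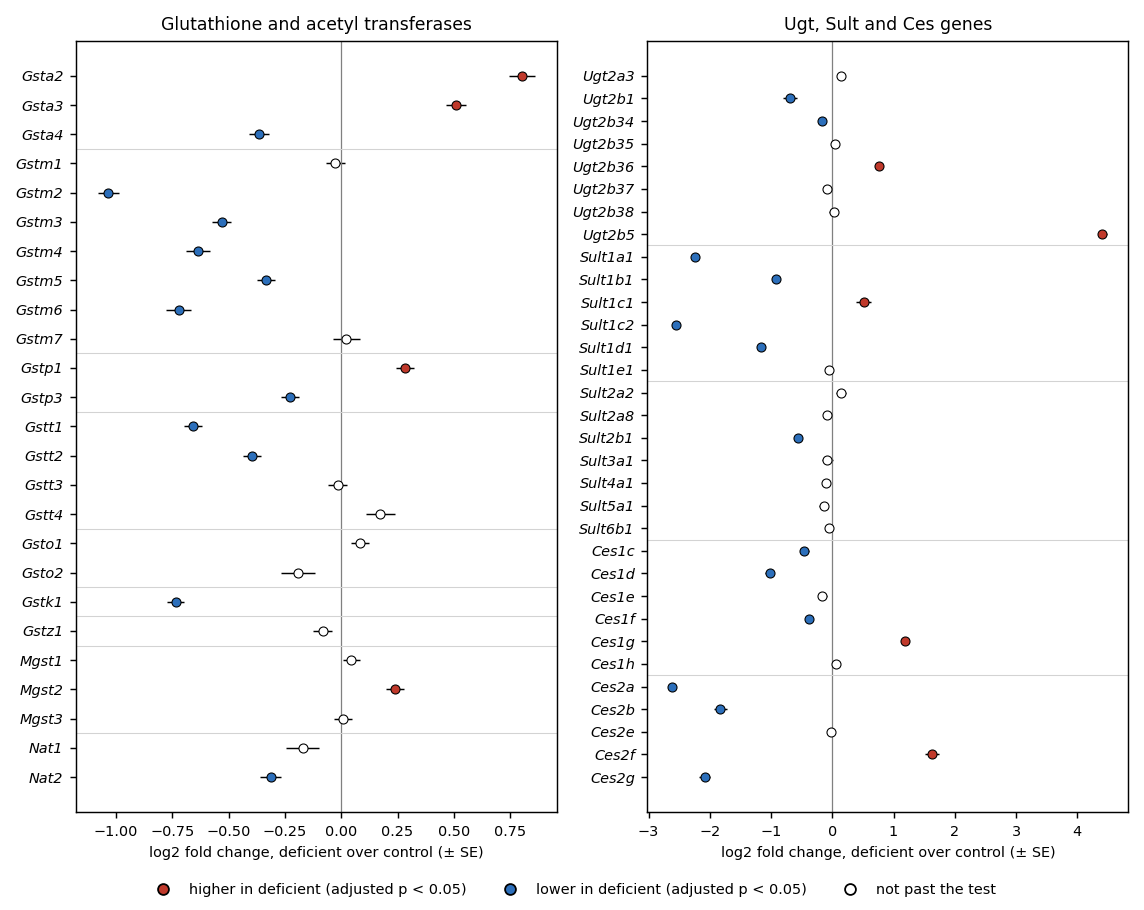
Log2 fold change of deficient over control colon for the 57 members, grouped by family, with 3 arrays per group; points are the limma estimates, bars the SE (smaller than the point for many genes), and fill marks the call. The scales of the panels differ: the glutathione and acetyl transferases lie between -1.03 and 0.80, whereas Ugt2b5 reaches 4.41 and Ces2a -2.62.

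The promoters of 4 members with large changes are printed because they show how unlike, or partly alike, the start regions are of genes that moved together or apart. They are the RefSeq sequences of build GRCm38.p6, each from 250 bases before to 50 bases after the gene's start and read 5′ to 3′ on the gene's own strand. Ces2a (chr8:104733753-104734052, plus strand), Ces2f (chr8:104947106-104947405, plus strand) and Ces2g (chr8:104961468-104961767, plus strand) come from the same run of carboxylesterase genes. Ugt2b5 is at chr5:87140291-87140590 on the minus strand. In the Ces2 lines capitals mark every stretch of 12 or more letters found without a mismatch in another of the Ces2 lines, and in the Ugt2b5 line they mark the nuclear receptor motif AGGTCA, on either strand.
Ces2a: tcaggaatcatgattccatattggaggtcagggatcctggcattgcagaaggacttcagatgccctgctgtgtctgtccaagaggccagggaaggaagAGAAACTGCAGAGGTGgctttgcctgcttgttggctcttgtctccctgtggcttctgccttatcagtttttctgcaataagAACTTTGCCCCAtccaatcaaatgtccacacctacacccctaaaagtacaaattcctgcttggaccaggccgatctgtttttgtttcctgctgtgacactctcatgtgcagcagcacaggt
Ces2f: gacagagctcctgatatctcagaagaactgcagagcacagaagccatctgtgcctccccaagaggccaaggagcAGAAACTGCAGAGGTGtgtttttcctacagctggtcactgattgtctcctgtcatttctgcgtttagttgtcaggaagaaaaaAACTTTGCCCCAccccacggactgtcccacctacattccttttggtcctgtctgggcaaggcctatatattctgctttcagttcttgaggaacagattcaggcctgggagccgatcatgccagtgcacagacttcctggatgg
Ces2g: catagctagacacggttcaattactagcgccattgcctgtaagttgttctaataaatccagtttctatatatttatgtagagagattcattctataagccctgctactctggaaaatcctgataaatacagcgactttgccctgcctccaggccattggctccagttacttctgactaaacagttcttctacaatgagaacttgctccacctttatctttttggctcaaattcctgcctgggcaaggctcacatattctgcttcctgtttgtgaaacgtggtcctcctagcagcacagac
Ugt2b5: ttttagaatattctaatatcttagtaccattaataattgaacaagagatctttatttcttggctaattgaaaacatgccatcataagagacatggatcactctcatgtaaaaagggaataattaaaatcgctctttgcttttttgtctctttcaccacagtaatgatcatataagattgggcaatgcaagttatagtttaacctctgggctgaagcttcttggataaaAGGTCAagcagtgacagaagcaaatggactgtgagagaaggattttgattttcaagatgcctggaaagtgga
Ces2a and Ces2f, which changed in opposite directions, shared 28 letters in such stretches, the longest of 16 letters, and were identical at 58.2% of the columns of a global alignment. Ces2g, which fell with Ces2a, held no such stretch, and it was identical at 55.6% of the columns with Ces2a and at 49.4% with Ces2f. As a scale for these shares, pairs of promoters from different families among 6 aligned (the 4 above with Sult1c2 and Sult1a1) gave 47.9% to 54.8%.

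A promoter was found in the RefSeq table for 48 of the 57 members, with 60 start regions in all, and 7 short motifs were searched on both strands. The nuclear receptor motif AGGTCA was held by 18.3% of member promoters and 16.3% of all 32851 promoters; it stood in those of Ces2a and Ugt2b5, at -226 and -22 from the start. The antioxidant response element TGACNNNGC, bound by Nrf2, was held by 6.67% (4 of 60) against 12.4%. The xenobiotic response element core GCGTG, bound by the Ah receptor, was held by 18.3% against 32.4%. For the CDX motif TTTATG the shares were 15% and 11.9%, and Ces2g held it at -179. The HNF1 motif GTTAAT was held by 6.67% (4 of 60) and 7.1%, and the TATA box TATAAA by 18.3% and 13.6%. For the HNF4 motif CAAAGTCCA the shares were 1.67% and 0.475%, the former being 1 promoter of 60, that of Sult1b1. These matches describe the letters in the window only.

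Carboxylesterases held both the lowest and some of the highest differences among the members. Of the 11 measured Ces genes, 6 fell (54.5%), 2 rose (18.2%) and 3 did not pass, where 28.4% of all genes fell and 21.9% rose. Ces2 enzymes are the main carboxylesterases of the intestine and prefer esters with a small acyl group, as many prodrugs are. Ces2a read 11.46, 11.42 and 11.51 on the control arrays and 8.85, 8.87 and 8.82 on the deficient arrays. It was 6.14-fold lower (log2 difference -2.62, SE 0.04, adjusted p = 3.03e-08), and the spread within each group was far smaller than the difference. Ces2g read 9.52, 9.30 and 9.41 in controls and 7.31, 7.17 and 7.49 in deficient colon, a difference of -2.09 (SE 0.09, adjusted p = 2.64e-06). Ces2b read 9.91, 9.98 and 10.07 against 8.15, 7.95 and 8.38, a difference of -1.83 (SE 0.10, adjusted p = 8.86e-06). All deficient arrays lay far below all control arrays for these 3 genes, and the deficient arrays differed most from each other for Ces2b. Ces2f went the other way, with 6.39, 5.96 and 6.33 in controls and 7.87, 7.75 and 7.94 in deficient colon, a 3.09-fold rise (log2 difference 1.63, SE 0.11, adjusted p = 2.35e-05). A dimmer probe set of Ces2f differed by 0.18 only (SE 0.11, adjusted p = 0.232), so the rise rests on 1 of its probe sets. Ces2e was bright in both groups and differed by -0.02 (SE 0.04, adjusted p = 0.728).

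Of 6 Ces1 genes, 3 fell (50%) and 1 rose (16.7%), against 28.4% and 21.9% of all genes. Ces1d, a triacylglycerol hydrolase, read 9.38, 9.27 and 9.44 in controls and 8.43, 8.21 and 8.38 in deficient colon, a difference of -1.02 (SE 0.07, adjusted p = 2.24e-05). Its other probe sets also fell, by 0.60 and 0.81, which is less than 2-fold. Ces1g, which is known for a part in lipid metabolism of liver and gut, read 8.51, 8.38 and 8.43 against 9.61, 9.61 and 9.65, a 2.27-fold rise (log2 difference 1.18, SE 0.05, adjusted p = 1.75e-06). No deficient array overlapped the controls for either gene, which was so for 60.9% of all genes. Ces1d and Ces1g moved in opposite directions. Ces1c, the esterase of mouse plasma, fell by 0.45 (adjusted p = 0.00134) and Ces1f fell by 0.39 (adjusted p = 0.000496), the latter through a probe set whose name ends in _s_at, which can bind transcripts of related genes. Ces1e and Ces1h differed by -0.16 and 0.06 and did not pass the test.

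Sulfotransferases of the Sult1 family, which act on phenols, catecholamines, thyroid hormone and estrogens, fell in 4 of 6 cases (66.7%). Of all genes, 28.4% fell. Sult1c2 read 10.78, 10.80 and 10.74 in controls and 8.23, 8.26 and 8.18 in deficient colon, and was 5.85-fold lower (log2 difference -2.55, SE 0.04, adjusted p = 3.09e-08). Sult1a1, the main phenol sulfotransferase, read 13.26, 13.28 and 13.25 against 11.05, 11.01 and 11.01, and was 4.72-fold lower (log2 difference -2.24, SE 0.04, adjusted p = 3.39e-08). Both genes were tightly grouped within each genotype. Sult1d1, which takes dopamine among its substrates, read 12.99, 13.05 and 12.94 against 11.83, 11.70 and 11.93, a difference of -1.17 (SE 0.07, adjusted p = 8.34e-06), and its other probe set fell too. Sult1b1, which acts on phenols and thyroid hormone, read between 11.98 and 12.02 on the 3 control arrays and 11.10, 11.03 and 11.10 on the deficient arrays, a difference of -0.92 (SE 0.04, adjusted p = 3.19e-06). For each of these 4 genes the highest deficient value was below the lowest control value by more than the whole range of either group. Groups without overlap were found in 60.9% of all genes. Sult1c1, a dim member, was the exception, at 5.25, 4.93 and 4.71 in controls and 5.42, 5.52 and 5.49 in deficient colon. It rose by 0.51 (SE 0.12, adjusted p = 0.0119). The t-test named in the methods did not make this call. The estrogen sulfotransferase Sult1e1 was dim and differed by -0.06 (adjusted p = 0.458).

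The 7 measured members of Sult2 and the higher families were mostly dim and mostly did not pass, where 28.4% of all genes fell and 21.9% rose. Only Sult2b1, which sulfates cholesterol, fell, by 0.56 (SE 0.05, adjusted p = 5.64e-05), with 9.75 to 9.88 in controls and 9.24 to 9.27 in deficient colon. Sult2a2, a hydroxysteroid sulfotransferase, differed by 0.14, Sult5a1 by -0.14 and the brain form Sult4a1 by -0.11. Sult2a8, Sult3a1 and Sult6b1 were close to the lowest signals, at percentiles 6.29, 1.87 and 4.89 of all probe sets, and differed by -0.09, -0.08 and -0.05. None of these 6 passed the test.

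**Figure D2:**
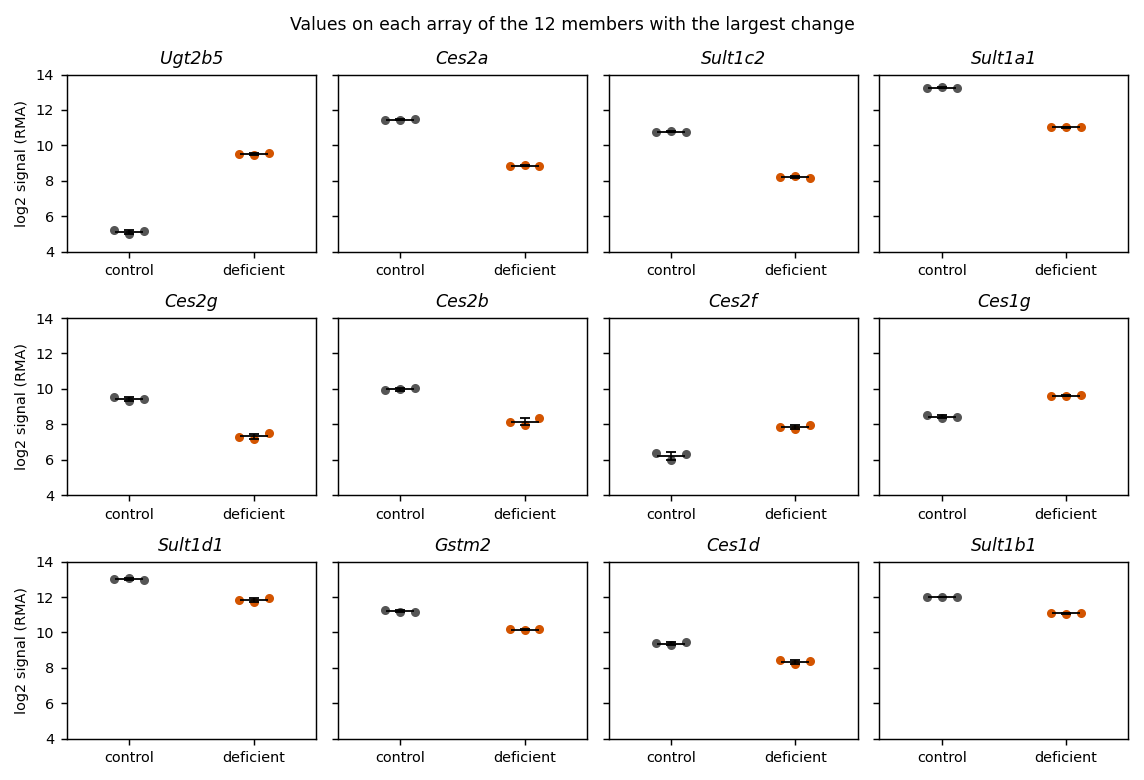
RMA log2 signal on each of the 3 control and 3 deficient arrays for the 12 members with the largest change past the test; dots are arrays, the horizontal mark is the mean and the bar the SD. In every panel the groups are apart, with Ugt2b5, Ces2f and Ces1g higher in deficient colon and the other 9 lower; a level in 1 panel cannot be set against that in another, since probe sets bind with different strength.

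Ugt2b5, a glucuronosyltransferase abundant in mouse liver, had the largest difference of all members. It read 5.22, 4.98 and 5.16 on the control arrays and 9.52, 9.48 and 9.59 on the deficient arrays, a 21.2-fold rise (log2 difference 4.41, SE 0.07, adjusted p = 2.54e-08). Its control values lay below the 40th percentile of signal (6.26) and its deficient values well above it, so the fold is taken against a dim control signal. Of the other 7 Ugt2 genes, Ugt2b36 rose by 0.77 (SE 0.06, adjusted p = 3.45e-05), from 6.46 to 6.62 in controls to 7.24 to 7.38 in deficient colon. Ugt2b1 was dim and fell by 0.69 (SE 0.11, adjusted p = 0.00173). Ugt2b34 fell by 0.16 (SE 0.04, adjusted p = 0.0123), but its other probe set differed by 0.10 and did not pass (adjusted p = 0.24). Ugt2b35, bright in both groups, differed by 0.05 (adjusted p = 0.554). Ugt2a3, Ugt2b37 and Ugt2b38 were dim and differed by 0.14, -0.09 and 0.02. Beside the rise of Ugt2b5, 2 of 8 hepatocyte markers (Hpx and Tat) rose, 1 (Ttr) fell and 5 did not pass. Of 9 small intestinal enterocyte markers, 6 rose, 1 (Slc5a1) fell and 2 did not pass. The part of either list in the rise of Ugt2b5 was not tested.

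Among 23 glutathione transferases, 10 fell (43.5%) and 4 rose (17.4%), against 28.4% and 21.9% of all genes. Gstm2 alone of them passed 2-fold. The Gstm family, which conjugates a broad range of electrophiles, fell in 5 of 7 genes (71.4%) and rose in none. Gstm2 read 11.26, 11.18 and 11.15 in controls and 10.18, 10.13 and 10.18 in deficient colon, a difference of -1.03 (SE 0.05, adjusted p = 2.85e-06). Gstm6, Gstm4, Gstm3 and Gstm5 fell by 0.72, 0.64, 0.53 and 0.33. None of them overlapped between groups, which was so for 60.9% of all genes. Gstm1 differed by -0.03 (SE 0.04, adjusted p = 0.667), and its other probe sets did not pass either. For Gstm7 the probe sets disagreed. The one with the higher mean differed by 0.02 (adjusted p = 0.805), whereas the other read 7.97, 8.17 and 8.05 in controls and 6.68, 6.67 and 6.77 in deficient colon and fell by 1.36 (SE 0.06, adjusted p = 3.19e-06). Gstm genes are close paralogs, so that probe sets may bind more than 1 of them.

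In the Gsta family 2 genes rose and 1 fell, where 21.9% of all genes rose and 28.4% fell. Gsta2 rose by 0.80 (SE 0.06, adjusted p = 2.65e-05), with 6.80, 6.70 and 6.63 in controls and 7.46, 7.50 and 7.57 in deficient colon, and Gsta3 rose by 0.51 (SE 0.04, adjusted p = 7.01e-05). Gsta4, which detoxifies the lipid peroxidation product hydroxynonenal, fell by 0.37 (SE 0.04, adjusted p = 0.000369). Gstp1 rose by 0.28 (SE 0.04, adjusted p = 0.00101), and its neighbour Gstp3 fell by 0.23 (adjusted p = 0.00223). In the theta family, Gstt1 and Gstt2 fell by 0.66 and 0.40, while Gstt3 and Gstt4 differed by -0.02 and 0.17 without passing. Gstk1, the kappa form of mitochondria and peroxisomes, read 11.23 to 11.25 in controls and 10.49 to 10.53 in deficient colon and fell by 0.74 (SE 0.04, adjusted p = 6.27e-06).

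Gsto1, the omega form that reduces dehydroascorbate, differed by 0.08 (SE 0.04, adjusted p = 0.128) and Gsto2 by -0.19 (adjusted p = 0.0854). The groups did not overlap for Gsto1, which was so for 60.9% of all genes. It was called higher by the t-test named in the methods, with and without adjustment, and by limma with trend and robust settings. Gstz1, an isomerase of tyrosine breakdown, differed by -0.08 (adjusted p = 0.177). Among the membrane-bound forms, Mgst2, which can make leukotriene C4, rose by 0.24 (SE 0.04, adjusted p = 0.00205), and Mgst1 and Mgst3 differed by 0.05 and 0.01. Of the acetyltransferases, Nat2 fell by 0.31 (SE 0.05, adjusted p = 0.000979) and Nat1, which was dim, differed by -0.17 (adjusted p = 0.0999).

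**Figure D3:**
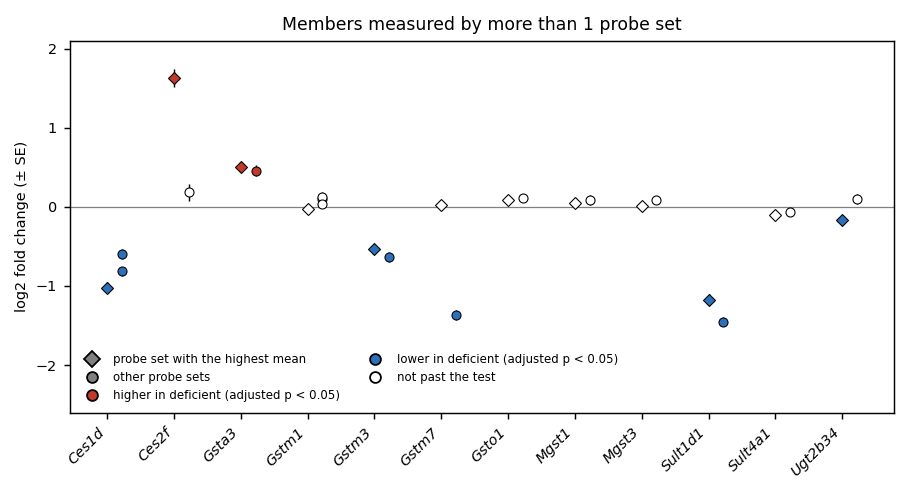
Log2 fold change (± SE) of every probe set for the 12 members measured by more than 1; diamonds are the probe set with the highest mean, which stands for the gene, circles the others, and fill marks the call. Ces2f, Gstm7 and Ugt2b34 have probe sets with different calls, and no gene has probe sets called in opposite directions.

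Many members lie side by side in the genome, and the changes were read along the RefSeq gene order. On chromosome 3 the order Gstm5, Gstm7, Gstm6, Gstm3, Gstm2, Gstm1 and Gstm4 held no gene that rose. On chromosome 5, Ugt2b5 (4.41) and Ugt2b36 (0.77) are neighbours and were the only Ugt2 genes to rise. In the same run Ugt2b34 (-0.16), Ugt2b1 (-0.69), Sult1b1 (-0.92) and Sult1d1 (-1.17) fell. On chromosome 8, Ces1g (1.18) stood between Ces1f (-0.39), which fell, and Ces1h (0.06), and Ces2f (1.63) stood between Ces2e (-0.02) and Ces2g (-2.09). On chromosome 17 Sult1c2 (-2.55) and Sult1c1 (0.51) are neighbours that changed in opposite directions. These runs are few and were not tested.

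**Figure D4:**
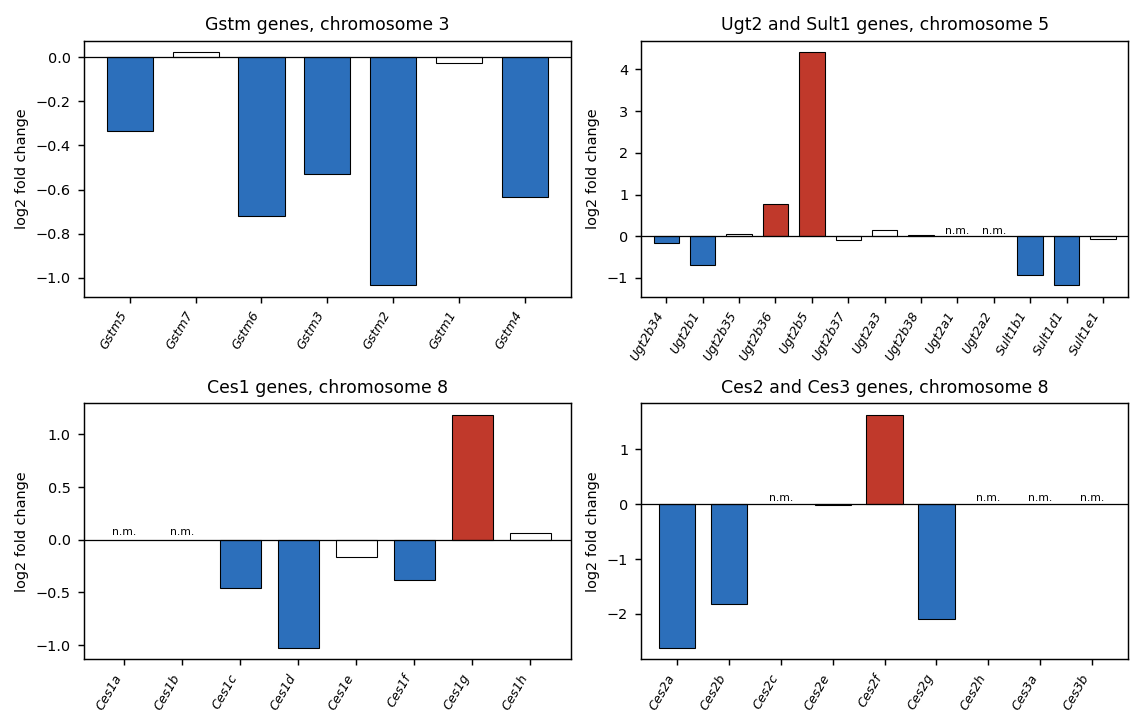
Log2 fold change of deficient over control colon for 4 runs of neighbouring members in RefSeq gene order; red bars rose, blue bars fell, white bars did not pass the test, and n.m. marks genes with no probe set of their own. The vertical scales differ between panels; Ces2f rose in a run where Ces2a, Ces2b and Ces2g fell, and Ugt2b5 and its neighbour Ugt2b36 were the Ugt2 genes that rose.

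Among genes that supply the co-substrates, more rose than fell. Of 16 measured genes of cofactor supply (18 listed), 9 rose (56.25%) and 3 fell (18.75%), with a median of 0.21. Over all genes, 21.9% were higher and 28.4% lower, which is the scale for this list and those that follow. Slc35d1, which carries UDP-sugars into the endoplasmic reticulum, rose by 0.77 (SE 0.05, adjusted p = 1.34e-05) and Ugdh, which makes UDP-glucuronic acid, by 0.32. Gsr, which regenerates glutathione, rose by 0.71 (SE 0.04, adjusted p = 9.48e-06), and Gclc and Gclm, the subunits of the enzyme that starts glutathione synthesis, rose by 0.64 and 0.34. For sulfation, Papss1 and Papss2, which make PAPS, rose by 0.19 and 0.35, whereas the sulfate carrier Slc26a2 fell by 1.27 (SE 0.04, adjusted p = 5.41e-07), with 13.29 in control and 12.02 in deficient colon on average.

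Other enzymes and transporters of the same steps were mixed. Of 24 other conjugating and hydrolysing enzymes, 5 rose (20.8%) and 9 fell (37.5%), against 21.9% and 28.4% of all genes. Aadac, a microsomal deacetylase of drugs, fell by 1.84 (adjusted p = 2.5e-07) and the lactonase Pon3 fell by 0.91, while the monoacylglycerol lipase Mgll rose by 0.99. Of 8 deconjugating enzymes, 4 rose and 4 fell (50% each), with the β-glucuronidase Gusb higher by 0.74 and the sulfatase Arsb lower by 0.80. Of 10 efflux transporters of conjugates and drugs, 3 rose (30%) and 4 fell (40%). Abcb1a fell by 0.98, Abcc6 by 0.68 and Abcc1 by 0.66, and Abcc3 and Abcg2 rose by 0.46 and 0.33.

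Among 25 measured regulators of drug metabolism and of epithelial identity, 9 rose (36%) and 10 fell (40%), against 21.9% and 28.4% of all genes. Ppargc1a, a coactivator of energy metabolism, fell by 1.54 (adjusted p = 4.33e-07), the pregnane X receptor Nr1i2 by 0.72 (adjusted p = 1.51e-05) and the Ah receptor Ahr by 0.51. The bile acid receptor Nr1h4 rose by 1.27 (adjusted p = 2.03e-06) and Cdx2 by 0.56. Nfe2l2, the gene of Nrf2, differed by -0.01 (adjusted p = 0.88), but by -0.20 with its probe sets averaged (limma adjusted p = 0.0175). In the oxidising and reducing families next to conjugation, 22 of 69 genes named Cyp1 to Cyp4 by prefix fell (31.9%) and 6 rose (8.7%). The prefix also takes in genes such as Cyp27a1. Cyp2d10 differed by -2.58, Cyp2f2 by -2.46 and Cyp2c65 by 3.08. Aldo-keto reductases rose in 8 of 14 cases (57.1%) and fell in 2 (14.3%), led by Akr1c21 at 5.12, Akr1c18 at 1.62 and Akr1b8 at 0.98. Adh and Aldh genes rose in 10 (35.7%) and fell in 8 (28.6%) of 28 cases. Adh6a rose by 2.00 and Aldh1a1 by 0.97, and Aldh7a1 averaged 10.59 in deficient colon and rose as well.

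**Figure D5:**
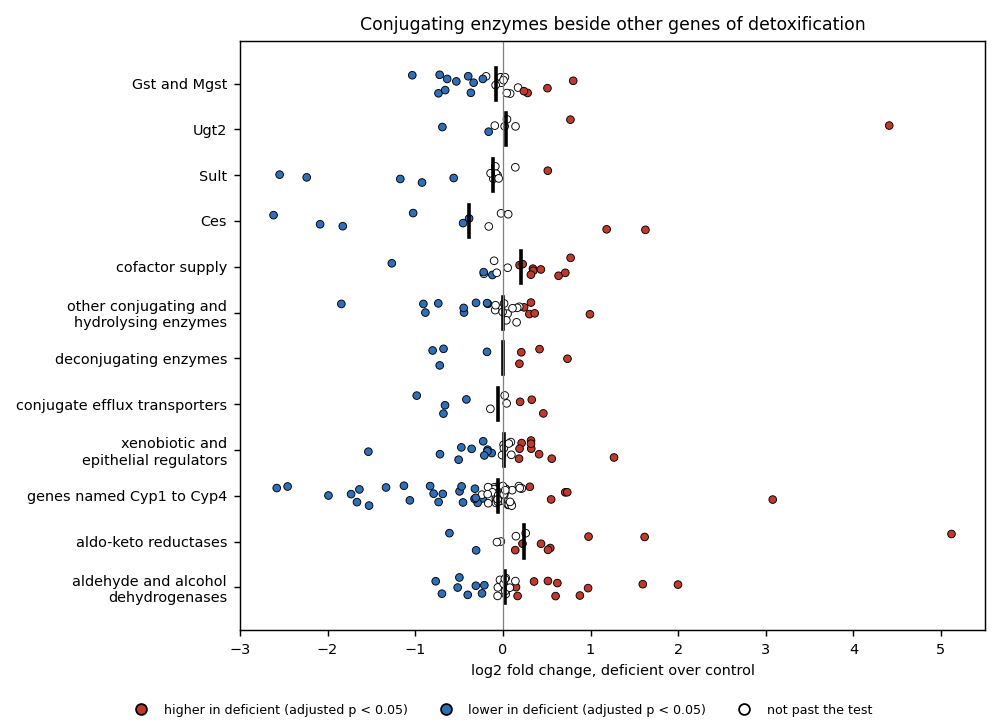
Log2 fold change of deficient over control colon for each gene of the Gst and Mgst, Ugt2, Sult and Ces classes and of 8 other gene lists; points are genes, fill marks the call, black bars the median of each list. The Ces median is -0.39 and that of cofactor supply 0.21, and in each list points lie on both sides of 0.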

How the data were processed

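Colon RNA of 3 control and 3 HDAC1/2 deficient mice had been hybridised to Affymetrix whole-genome mouse arrays, each labelled with a mouse number. The authors background-corrected and normalised the arrays by RMA in Flexarray and deposited log2 signals, which compress differences of dim probe sets. The precision is limited by the number of arrays.

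After removal of 64 array controls, the 45037 probe sets left entered a linear model in limma 3.58.1 (R 4.3.3; lmFit and eBayes), with Benjamini-Hochberg adjustment over all of them and a threshold of 0.05. Platform annotation gave 1 symbol to 34945 probe sets, several to 932 and none to 9160; where a gene had several, the one brightest on average stood for it. The design is unpaired. P-values measure the spread between these samples, and only between mice if no RNA was pooled. On simulated data with these means, 39 and 36 of 50 probe sets changed by 0.5 and -0.5 were recovered, and 50 of 50 at 1.5 and at -1.5, with 7 of 44837 unchanged ones called. Few probe sets were changed there, whereas 9162 of 18193 genes were called in the data. The adjusted threshold was therefore stricter in the simulation, and its recovery does not give the sensitivity of the calls reported here.

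The members and lists were chosen with earlier results of these data known. Named with values were the 4 members of each family with the largest change and the brightest one, the 12 largest changes on each array, and 3 genes per list; other members, and Ugdh, Gclc, Gclm, Papss1, Papss2, Abcc3, Abcg2, Ahr, Cdx2 and Nfe2l2, were named after their values were seen. Alternatives covered the test (including the methods' t-test), normalisation, filter, probe set choice, replicate block and leaving out each array.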

Additional observations from a re-analysis of the deposited data

How the results depend on the processing

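Over all alternative settings run, 8 to 10 members were higher and 22 to 26 lower, and no member called in either direction was called in the other. Changes of over 2-fold were counted for 2 to 3 members that rose and 7 to 8 that fell. Leaving out each array in turn gave 9 to 10 higher and 23 to 26 lower. With the replicate number as a replicate block, 9 were higher and 24 lower; the numbers did not pair the samples (correlations of same-numbered deviations 0.10, 0.06 and -0.03), and the block changed no member's call. Of 1810 recomputed gene values for 122 genes, 1775 kept direction and call, 12 newly passed, 6 no longer passed and 17 changed sign. Without _s_at and _x_at probe sets, Gstm1 differed by 0.043, Hdac2 by -0.067 and Ugt2b34 by 0.10. With all probe sets of each gene averaged, Gstm1 differed by 0.063, Hdac2 by -0.019, Gstm7 by -0.67 and Nfe2l2 by -0.20. Gstm7 and Nfe2l2 were then called lower. With centred arrays Mgst3 differed by -0.00017. When each array was left out in turn, values crossed 0 for Gstm7 (-0.035 to 0.061), Gstt3 (-0.033 to 0.0032), Ces1h (-0.0085 to 0.10), Mgst3 (-0.0087 to 0.016), Ugt2b38 (-0.047 to 0.073) and Nfe2l2 (-0.030 to 0.0068). Of these genes, only Ugt2b34 had passed the test with the settings described above. Its call was also lost without deficient replicate 1 and as the mean of its probe sets. Gsto1 was called higher (0.08) under the methods' t-test, with and without adjustment, and with trend and robust settings. Sult1c1 lost its call under the methods' t-test, and Ces1c and Abcc6 under that test with adjustment. Ces2f differed by 0.90 as the mean of its probe sets. Except for the use of other probe sets, the cause was not tested. Dim members, near the lowest signals, limit what a missed call can show.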

Other observations

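Probe sets that the annotation assigns to several genes could not be counted as members. One shared by Gm3776, Gsta2 and Gsta1 read 9.91, 9.90 and 10.02 on the control arrays and 11.99, 11.99 and 11.97 on the deficient arrays, a rise of 2.04 (limma SE 0.05, adjusted p = 1.29e-07). The 3 probe sets shared by 8 Ugt1a symbols were bright in both groups and differed by 0.06, 0.15 and 0.18, with adjusted p of 0.303, 0.0254 and 0.0114. The probe set of Ugt2a1 and Ugt2a2 differed by 0.03 (adjusted p = 0.668) and that of Ces3a and Ces3b by -0.02 (adjusted p = 0.858), both at dim signal. Which of the named genes gave each signal is not known from these values.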
